A study of Homo sapiens with 6 samples.

Results

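The NF-kB genes described here are 10 genes chosen by symbol: 5 encode the subunits of the transcription factor (NFKB1, NFKB2, REL, RELA and RELB), 2 encode inhibitors of the IkB family (NFKBIA and NFKBIE), and 3 are targets of the factor (TNFAIP3, BIRC3 and ICAM1), of which TNFAIP3 and BIRC3 also act back on the signal. All 10 were found among the 34036 genes of the count table, and all 10 were among the 14476 genes with enough counts to be tested. The rule is the list of symbols alone, and it was set with results of these libraries known.

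RNA was sequenced from HepG2 cells, a human line derived from a hepatocellular carcinoma, to ask how gene expression differs when DGUOK, the mitochondrial deoxyguanosine kinase of purine salvage, is depleted. The siDGUOK group (n = 3) received a siGENOME pool of siRNAs against DGUOK, and the siControl group (n = 3) a non-targeting siRNA. All 6 cultures were transfected with Lipofectamine RNAiMAX, shared the same medium and were harvested 48 h later. As a model the system is a single tumour-derived line with a transient knockdown, and a pool cannot separate effects of its individual siRNAs.

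The titles and library names gave the groups, because the treatment field of the labels carries siControl for every library. DGUOK itself (chromosome 2, 73926826 to 73958961, GRCh38) checks these labels. Its level was 54.4, 53.1 and 48.2 CPM (counts scaled to a common library size, TMM-normalised) in siControl replicates 1, 2 and 3, and 9.08, 10.5 and 6.72 CPM in siDGUOK replicates 1, 2 and 3. Every siDGUOK library was thus low and the groups did not overlap, with a log2 fold change of −2.57 (SE 0.19, edgeR adjusted p = 1.64e-08). Totals on genes were 19065684, 18915508 and 10527216 counts in the siControl libraries and 18613138, 15978314 and 21334876 counts in the siDGUOK libraries. siControl replicate 3 was therefore the shallowest library and carries the largest counting error.

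NF-kB is a dimer of Rel-family subunits that is held in the cytoplasm of resting cells by IkB proteins. Signals from TNF, interleukin-1 or Toll-like receptors activate a kinase complex that marks the IkB proteins for degradation, and the freed dimer enters the nucleus, whereas a slower non-canonical branch works through processing of the NFKB2 product and its partner RELB. Several NF-kB targets, among them NFKBIA and TNFAIP3, switch the signal off again, and in the liver the pathway is known for the acute-phase response, inflammation and survival of hepatocytes.

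The labelled cell type was checked against its markers before the results. All 9 hepatocyte markers had counts in all 6 libraries, and none was at 0. Their summed level was 52900, 47100 and 46100 CPM in the siControl libraries and 27400, 23900 and 22500 CPM in the siDGUOK libraries. ALB was the most abundant in siControl libraries, at a mean of 16100 CPM. In siDGUOK libraries SERPINA1 was the most abundant at a mean of 7880 CPM, followed by TF at 6230 and ALB at 5400 CPM. All siDGUOK sums lay below all siControl sums. In edgeR's test 8 of the 9 were called lower by the rule given below, beside 6.68% of all genes. They ran from FGB (log2 fold change −1.90) to HNF4A (−0.51), and SERPINA1 was the exception at 0.02. In bulk RNA, fewer cells of a type and less RNA per cell cannot be told apart.

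Markers of other cells were low in most libraries but set siDGUOK replicate 2 apart. The 3 endothelial markers PECAM1, VWF and CDH5 summed to 1.66, 1.39 and 2.29 CPM in the siControl libraries and to 3.78, 56.2 and 4.05 CPM in the siDGUOK libraries. The high value is that of siDGUOK replicate 2, where VWF, the most abundant of the list, had 510 counts against 26 at most in any other library. Among the 6 leukocyte markers LYZ was the most abundant and was high everywhere, at 1670 ± 51.0 CPM in siControl and 1800 ± 82.1 CPM in siDGUOK libraries (SD, n = 3). The 5 others summed to 3.95, 7.19 and 4.77 CPM in siControl and to 6.38, 12.4 and 5.66 CPM in siDGUOK libraries, so that siDGUOK replicate 2 was again the highest. PTPRC led these 5 with 129 counts there, and CD14 was at 0 in that library. VWF was at 0 in siControl replicate 3 and siDGUOK replicate 3, PECAM1 in siControl replicate 2, and CDH5 in siControl replicates 1 and 2. Of the endothelial and leukocyte markers 0 were called by edgeR and 0 by DESeq2, and 2 endothelial ones had an unadjusted p under 0.05 in edgeR's test. The 4 fibroblast and stellate markers summed to 43.4, 41.6 and 36.5 CPM in siControl and to 62.1, 64.2 and 47.5 CPM in siDGUOK libraries, ACTA2 being the most abundant. COL1A1 was called higher (4.04) and PDGFRB lower (−1.02), and COL3A1 had at most 1 count in a siControl library but 148, 254 and 9 counts in the siDGUOK libraries; it was not among the genes tested by edgeR and was called by DESeq2. Results that rest on siDGUOK replicate 2 are given below with and without it.

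Among the 10 genes, only ICAM1 was called, and it fell in siDGUOK cells by 0.94 on the log2 scale (SE 0.11). A call required a Benjamini-Hochberg adjusted p below 0.05 in edgeR's quasi-likelihood test, fitted on the whole table, together with a log2 fold change beyond 0.5 in either direction. The 1 gene of 10 stands beside 2041 of 14476 genes, or 14.1%, called in the same test, of which 7.42% were higher and 6.68% lower. At the adjusted p alone 3 of 10 passed (NFKB1, NFKBIA and ICAM1, each lower in siDGUOK cells), beside 19.7% of all genes. The libraries of the groups did not overlap for 4 of 10 (RELA above, and NFKB1, NFKBIA and ICAM1 below), beside 36.0% of all genes. With only 10 genes, these shares are not far from those of all genes. Their median log2 fold change was −0.25, and that of all genes tested was 0.017. The members' median was −0.14 without siDGUOK replicate 1 or without siDGUOK replicate 3 and −0.33 without siDGUOK replicate 2.

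**Figure D1:**
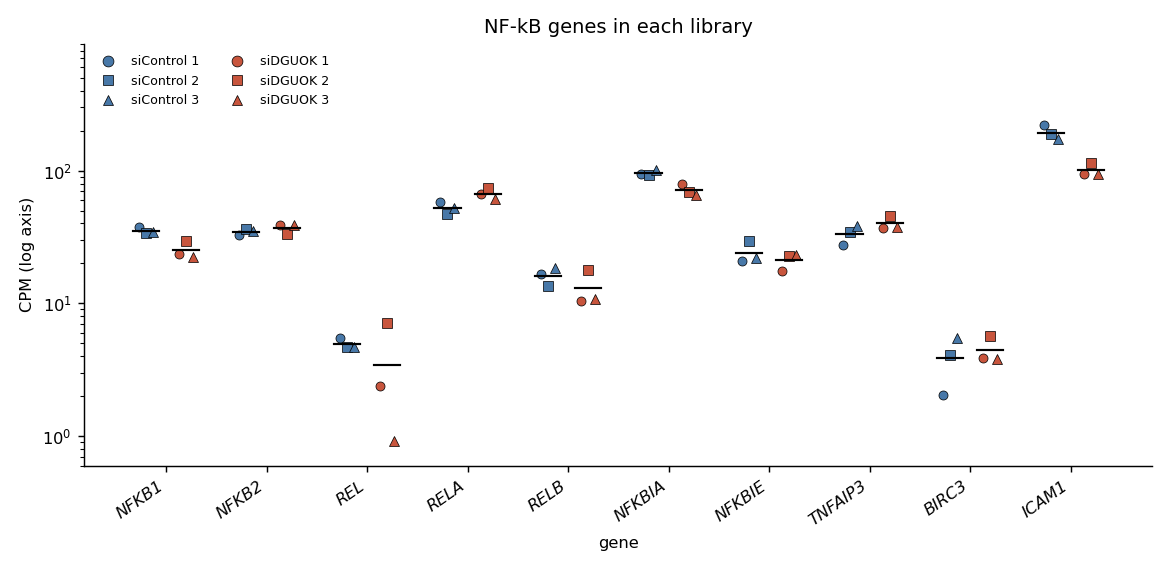
Level of each of the 10 NF-kB genes in CPM (log axis) in every library, with siControl in blue, siDGUOK in red, the replicate number as the symbol and the group mean as a black line. ICAM1, NFKBIA and NFKB1 lie lower and RELA higher in all siDGUOK libraries, and REL spreads from 0.920 to 7.08 CPM within the siDGUOK group.

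**Figure D2:**
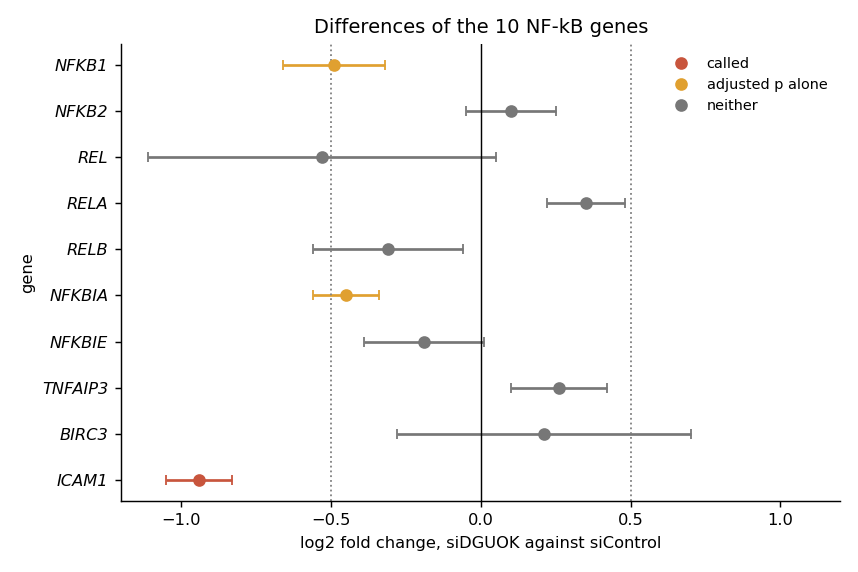
Log2 fold change of siDGUOK against siControl for the 10 genes, with bars of 1 standard error from edgeR's fit (n = 3 libraries a group) and dotted lines at the fold threshold of 0.5. ICAM1 at −0.94 is the called gene, NFKB1 (−0.49) and NFKBIA (−0.45) passed the adjusted p alone, and REL has the widest bar.

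Levels of different genes can be compared only per length, here as CPM per kilobase of all annotated exons. In siControl cells ICAM1 was the most abundant of the 10 at 56.0 ± 6.78 CPM per kilobase (SD, n = 3), followed by NFKBIA at 28.5 ± 1.43, RELA at 9.62 ± 1.03 and NFKBIE at 9.31 ± 1.77. Below them came NFKB2 at 6.20 ± 0.339, RELB at 5.41 ± 0.802, TNFAIP3 at 5.21 ± 0.857 and NFKB1 at 2.25 ± 0.126, and the lowest were BIRC3 at 0.519 ± 0.235 and REL at 0.289 ± 0.0277 CPM per kilobase. The siControl libraries overlapped between the neighbours RELA and NFKBIE, NFKB2 and RELB, RELB and TNFAIP3, and BIRC3 and REL, so the order within these pairs is not resolved. In siDGUOK cells ICAM1 at 29.2 ± 3.43 was still above NFKBIA at 20.9 ± 2.05 CPM per kilobase (SD, n = 3), with a narrower gap, but this order depends on the length used. Per kilobase of the canonical transcript, a scale added after the data were seen, ICAM1 and NFKBIA stood at 65.1 ± 7.88 and 62.1 ± 3.11 in siControl, with overlapping libraries, and at 33.9 ± 3.98 and 45.5 ± 4.47 in siDGUOK cells (SD, n = 3), where NFKBIA was the higher in every library. The place of NFKB1 depends on the length too, because its annotated exons add up to 15679 bases and its canonical transcript to 4055. On the canonical scale NFKB1 stood at 8.69, above RELB (7.18) and TNFAIP3 (7.19), and NFKB2 (11.5) and NFKBIE (10.2) had overlapping siControl libraries.

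Of the subunits, NFKB1 and RELA encode the parts of the classical dimer, p50 (made from the p105 precursor) and p65, and their estimates had opposite signs, with neither gene called. NFKB1 (ENSG00000109320.11, chromosome 4, 102501330 to 102617302) measured 37.5, 33.8 and 34.4 CPM in the siControl libraries and 23.5, 29.5 and 22.3 CPM in the siDGUOK libraries. All siDGUOK values were below all siControl values, the nearest being siDGUOK replicate 2. This gave a log2 fold change of −0.49 (SE 0.17, edgeR adjusted p = 0.0473), just under the fold threshold. Without siDGUOK replicate 2 it was −0.62 (edgeR adjusted p = 0.0268), which made NFKB1 a call. Its adjusted p was under 0.05 in 5 of the 13 alternative fits and ran from 0.0268 to 0.150 over them.

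RELA (ENSG00000173039.18, chromosome 11, 65653599 to 65663090) measured 58.1, 46.9 and 52.5 CPM in the siControl libraries and 66.4, 74.4 and 60.8 CPM in the siDGUOK libraries. It was highest in siDGUOK replicate 2, and every siDGUOK library exceeded every siControl library, although siControl replicate 1 and siDGUOK replicate 3 lay close together. The log2 fold change of 0.35 (SE 0.13) did not pass (edgeR adjusted p = 0.0621). Without siDGUOK replicate 2 it was 0.28 (edgeR adjusted p = 0.236). The adjusted p was under 0.05 in 3 of 13 alternative fits, between 0.0412 and 0.236, and RELA was called in none of them.

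REL, which encodes the c-Rel subunit best known from lymphocytes, was with BIRC3 the least abundant of the 10 per length and the most uneven of them in siDGUOK cells. REL (ENSG00000162924.13, chromosome 2, 60881491 to 60931612) had 103, 88 and 49 counts in the siControl libraries, or 5.50, 4.69 and 4.67 CPM. In the siDGUOK libraries it had 44, 115 and 20 counts, or 2.38, 7.08 and 0.920 CPM. siDGUOK replicate 2 was thus the highest of all 6 libraries while siDGUOK replicates 1 and 3 were the lowest, and the coefficient of variation was 9.58% in siControl and 93.1% in siDGUOK cells. REL had a log2 fold change of −0.53 with a standard error of 0.58 (edgeR adjusted p = 0.614). Without siDGUOK replicate 2 it was −1.59 (SE 0.60, edgeR adjusted p = 0.0833), which still did not pass. Leaving out siDGUOK replicate 1 or 3 moved it the other way, to −0.34 or −0.09, so the size for REL rests on single libraries.

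RELB, the partner of the NFKB2 product in the non-canonical branch, showed the same library as its outlying siDGUOK value. RELB (ENSG00000104856.13, chromosome 19, 45001461 to 45038192) measured 16.6, 13.6 and 18.4 CPM in siControl and 10.4, 18.0 and 10.8 CPM in siDGUOK libraries. siDGUOK replicate 2 lay inside the siControl range, whereas siDGUOK replicates 1 and 3 lay below it. For RELB the log2 fold change was −0.31 (SE 0.25, edgeR adjusted p = 0.467), and without siDGUOK replicate 2 it was −0.61 (SE 0.27, edgeR adjusted p = 0.145) and without siDGUOK replicate 1 −0.19. For both REL and RELB the library with the high value is the one with the high endothelial and leukocyte marker sums, and the part of those cell types in the result was not tested.

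**Figure D3:**
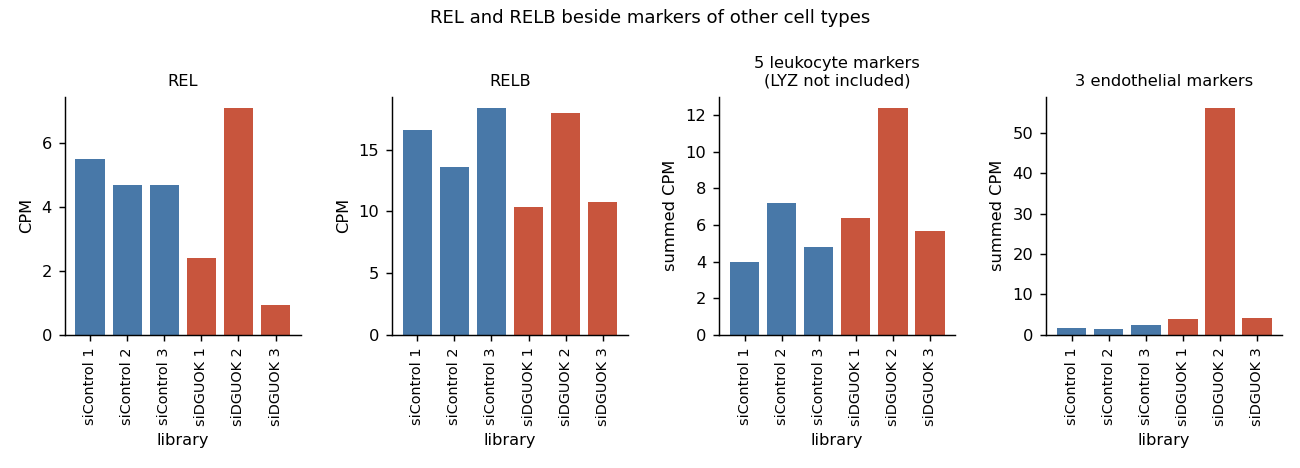
Bars from 0 give the level of REL and RELB in CPM and the summed CPM of 5 leukocyte markers (without LYZ) and of 3 endothelial markers in each library, siControl in blue and siDGUOK in red. siDGUOK replicate 2 holds the highest REL (7.08 CPM), leukocyte (12.4 CPM) and endothelial (56.2 CPM) values, and its RELB (18.0 CPM) exceeds that of the other siDGUOK libraries.

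NFKB2, which encodes the p100 precursor of p52, differed little. NFKB2 (ENSG00000077150.18, chromosome 10, 102394110 to 102402524) was 34.6 ± 1.89 CPM in siControl and 37.0 ± 3.41 CPM in siDGUOK cells (SD, n = 3), with overlapping libraries. Its log2 fold change was 0.10 (SE 0.15, edgeR adjusted p = 0.738) and stayed between 0.04 and 0.17 in all 13 alternative fits.

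The make-up of the factor pool can be read as the share of each subunit in the summed CPM per kilobase of the 5 genes. RELA held 43.0, 38.9 and 39.3% in the siControl libraries and 50.1, 48.9 and 48.1% in the siDGUOK libraries. NFKB1 held 9.67, 9.77 and 8.97% in siControl and 6.18, 6.76 and 6.13% in siDGUOK libraries. All siDGUOK libraries were thus higher in RELA share and lower in NFKB1 share than all siControl libraries, whereas the shares of NFKB2, RELB and REL overlapped between the groups. RELB held 22.4, 20.6 and 25.1% in siControl and 14.3, 21.6 and 15.6% in siDGUOK libraries, and NFKB2 held 23.6, 29.5 and 25.5% and 28.9, 21.2 and 30.0%. Shares of single subunits were not among the planned comparisons and are a description. The size of a share depends on the length used: per kilobase of the canonical transcript NFKB1 held 18.1, 18.3 and 17.1% in siControl and 11.6, 12.9 and 11.6% in siDGUOK libraries. On that scale RELA held 45.3, 41.0 and 42.2% in siControl and 52.8, 52.4 and 51.0% in siDGUOK libraries, and the groups again did not overlap for either gene. The sum of the 5 genes was 24.7, 22.1 and 24.5 CPM per kilobase in siControl and 24.3, 27.9 and 23.2 in siDGUOK libraries, and the groups overlapped.

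The genes of the non-canonical branch, NFKB2 and RELB, together held 46.0, 50.1 and 50.6% of the pool in siControl and 43.2, 42.8 and 45.5% in siDGUOK libraries. All siDGUOK shares were lower, with siControl replicate 1 and siDGUOK replicate 3 nearly level. The difference of means was −5.05 percentage points (two-sided exact permutation p = 0.1, the smallest that 3 against 3 libraries allow). Without siDGUOK replicate 2 it was −4.54 points. In that library NFKB2 had its lowest siDGUOK share (21.2%) and RELB its highest (21.6%). The difference rested on the length scale: on plain CPM, where long genes weigh more, the groups overlapped and the difference was −0.95 points (exact permutation p = 0.7). Per kilobase of the canonical transcript it was −3.07 points (exact permutation p = 0.2).

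Of the inhibitors, NFKBIA, which encodes IkB-alpha and is itself switched on by NF-kB, was lower in siDGUOK cells at the adjusted p alone. NFKBIA (ENSG00000100906.10, chromosome 14, 35401079 to 35404749) measured 94.6, 93.3 and 102 CPM in the siControl libraries and 78.7, 68.8 and 65.2 CPM in the siDGUOK libraries. The siControl libraries sat close together, and all siDGUOK libraries were below them. The log2 fold change was −0.45 (SE 0.11, edgeR adjusted p = 0.00648), short of the fold threshold. The adjusted p remained under 0.05 in all 13 alternative fits, between 0.00171 and 0.0434, and without siDGUOK replicate 1 the log2 fold change of −0.55 made it a call.

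NFKBIE, which encodes IkB-epsilon, overlapped between the groups. NFKBIE (ENSG00000146232.15, chromosome 6, 44258166 to 44265788) was 24.0 ± 4.56 CPM in siControl and 21.1 ± 3.05 CPM in siDGUOK cells (SD, n = 3), and siControl replicate 2 was the highest library at 29.3 CPM. The log2 fold change was −0.19 (SE 0.20, edgeR adjusted p = 0.597), and without siControl replicate 2 it was −0.02.

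The level of both inhibitors relative to RELA measures the transcript of these 2 genes per p65 transcript, and not that of all IkB genes. NFKBIB, another gene of the IkB family, is not in the ratio and had the opposite sign. It was 8.30 ± 1.65 CPM per kilobase in siControl and 11.6 ± 0.564 in siDGUOK cells (SD, n = 3). All its siDGUOK libraries were above, but its log2 fold change of 0.48 did not pass (SE 0.19, edgeR adjusted p = 0.0936). The ratio of NFKBIA plus NFKBIE to RELA, in CPM per kilobase, was 3.38, 4.52 and 4.01 in the siControl libraries and 2.47, 2.14 and 2.52 in the siDGUOK libraries. All siDGUOK libraries were lower, and the gap between the groups (0.855) was smaller than the range within the siControl group (1.14). The means were 3.97 ± 0.571 and 2.38 ± 0.210 (SD, n = 3), a difference of −1.59 (two-sided exact permutation p = 0.1, the smallest possible here). On plain CPM the difference was −0.944 and per kilobase of the canonical transcript −1.44 (exact permutation p = 0.1 for both), and without siDGUOK replicate 2 it was −1.47. The ratio is of transcripts and says nothing of protein or of NF-kB activity.

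**Figure D4:**
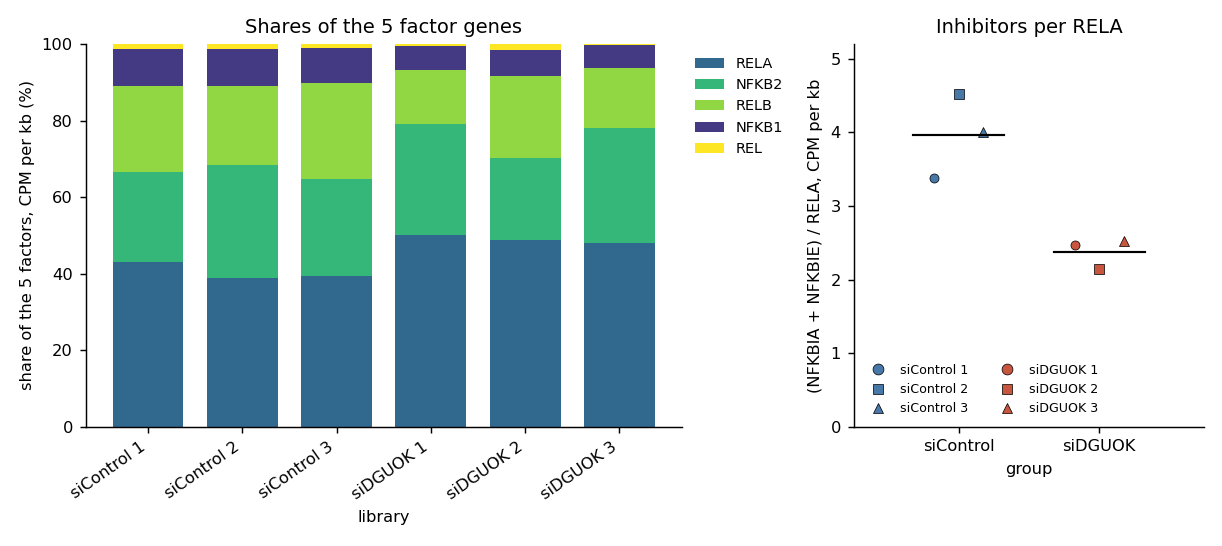
Left, stacked bars of the share of RELA, NFKB2, RELB, NFKB1 and REL in their summed CPM per kilobase (percent) in each library. Right, the ratio of NFKBIA plus NFKBIE to RELA per library, with group means as lines, at 3.38 to 4.52 in siControl and 2.14 to 2.52 in siDGUOK cells.

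ICAM1, a target of NF-kB that encodes an adhesion molecule for leukocyte integrins, had the largest difference of the 10 genes in the main fit. Without siDGUOK replicate 2 REL, which did not pass, had the larger estimate, at −1.59 against −1.04 for ICAM1. With replicate number as a block REL was −0.95 and ICAM1 −0.94. ICAM1 (ENSG00000090339.8, chromosome 19, 10271093 to 10286615) measured 219, 188 and 173 CPM in the siControl libraries and 93.6, 114 and 94.2 CPM in the siDGUOK libraries. The highest siDGUOK library, replicate 2, remained well below the lowest siControl library, replicate 3. The means were 193 ± 23.4 and 101 ± 11.8 CPM (SD, n = 3), and the log2 fold change was −0.94 (SE 0.11, edgeR adjusted p = 3.63e-06). ICAM1 was called in all 13 alternative fits, at −1.04 to −0.84. Its counts of 1733 to 4094 per library make it the member with the most counts.

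The genes closest to ICAM1 over the 6 libraries, by Pearson correlation of log2 CPM among the 9225 other genes averaging 10 CPM or more, were ENPP3 (r = 0.9959), EPB41 (r = 0.9958) and TCP1 (r = 0.9943). These values are a description over 6 libraries that fall into both groups, and 10 genes had an r above 0.99. The levels of ENPP3 were 42.4 and 22.3 CPM and those of EPB41 were 56.3 and 32.9 CPM (means of siControl and siDGUOK), and both were called, with log2 fold changes of −0.93 and −0.78. TCP1 differed less, at 252 and 217 CPM, and was not called (log2 fold change −0.22).

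TNFAIP3, which encodes the ubiquitin-editing enzyme A20 that restrains the pathway, did not pass. TNFAIP3 (ENSG00000118503.14, chromosome 6, 137867214 to 137883314) measured 27.5, 34.8 and 38.3 CPM in siControl and 36.7, 45.8 and 37.9 CPM in siDGUOK libraries. siControl replicate 1 was the lowest and siDGUOK replicate 2 the highest, and the groups overlapped. TNFAIP3 had a log2 fold change of 0.26 (SE 0.16, edgeR adjusted p = 0.315). It was 0.16 without siDGUOK replicate 2 and 0.14 without siControl replicate 1. NFKBIA and TNFAIP3, both known as feedback targets, thus had estimates of opposite sign.

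BIRC3, which encodes the ubiquitin ligase cIAP2, was low in every library, with 38 to 92 counts. BIRC3 (ENSG00000023445.13, chromosome 11, 102317484 to 102339403) was 3.89 ± 1.76 CPM in siControl and 4.46 ± 1.04 CPM in siDGUOK cells (SD, n = 3). The standard error of its log2 fold change of 0.21 was 0.49 (edgeR adjusted p = 0.840), so the estimate is smaller than its error; the siControl libraries alone had a coefficient of variation of 45.3%. The estimate ran from −0.11 without siControl replicate 1 to 0.54 without siControl replicate 3, and it was 0.00 without siDGUOK replicate 2, the highest library for BIRC3.

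Promoter sequences are shown for 5 of the members with short matches to the kappaB consensus or to a string given below. They include NFKB1, NFKBIA and ICAM1, the 3 members past the adjusted p, which are all lower. The promoter table used (RefSeq, GRCh38.p14) held entries for 8 of the 10 genes, without RELB and NFKBIE, and the 250 bases before each start were searched on both strands. The kappaB consensus of 10 letters was GGGRNNYYCC, where R is A or G, Y is C or T and N is any base. It was found in 6 of the 8 genes (NFKB1, NFKB2, REL, NFKBIA, TNFAIP3 and BIRC3), or in 7 of the 12 promoter entries of the 8 genes. Of all 35116 entries 9.96% held it. The members were chosen as NF-kB factors, inhibitors and targets, so this comparison is not a test either. The 9-letter string GGAAATTCC, chosen after the sequences were seen, was found in NFKB1, REL, NFKBIA and ICAM1, or in 4 of the 12 entries. The string was found in 0.413% of all entries, but that choice fixed its presence in members, so these shares are not a test. The string overlaps the consensus in NFKB1, REL and NFKBIA, and ICAM1 holds the string without the consensus. Neither was found in the 2 entries of RELA. A match is a description of the sequence and not evidence of a working site. REL holds both, NFKB2, TNFAIP3 and BIRC3 hold the consensus, and none of these 4 passed edgeR's test.

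The windows of 5 genes run 5′ to 3′ on the strand of the gene and reach 15 bases beyond the outermost match, with capitals marking the matched letters. They are chr19:10270919-10270957 (plus strand) for ICAM1, chr14:35404806-35404845 (minus) for NFKBIA, chr4:102501295-102501334 (plus) for NFKB1, chr6:137867177-137867228 (plus) for TNFAIP3 and chr11:102317270-102317373 (plus) for BIRC3. The matches lie before the start of the RefSeq entry. That start is not always the Gencode 44 start given above, and the NFKB1 and TNFAIP3 windows end 5 and 15 bases inside the Gencode 44 gene. The windows of REL and NFKB2 are not printed. The first match begins 186 bases before the start in ICAM1, 81 in NFKBIA, 49 in NFKB1, 67 in TNFAIP3 and 199 in BIRC3.
ICAM1: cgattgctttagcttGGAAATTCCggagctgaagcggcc
NFKBIA: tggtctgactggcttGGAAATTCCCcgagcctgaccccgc
NFKB1: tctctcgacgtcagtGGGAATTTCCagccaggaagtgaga
TNFAIP3: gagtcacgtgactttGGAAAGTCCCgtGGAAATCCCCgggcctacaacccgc
BIRC3: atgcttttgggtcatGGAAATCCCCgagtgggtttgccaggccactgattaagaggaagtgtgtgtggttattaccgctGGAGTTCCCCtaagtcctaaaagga

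Other NF-kB target genes were called in both directions. Of 35 listed, 34 were in the table (SAA2 was not analysed here) and 22 were tested; 9 were called, 6 higher and 3 lower, or 40.9% beside 14.1% of all genes. The list was compiled with results of these libraries known, so its share is a description. The median log2 fold change of the 22 was 0.36. DESeq2, fitted on all genes with a count, called 12 of the list, beside 8.72% of all genes. With a library left out edgeR called 8 to 11, beside 11.1 to 12.7% of all genes. Without siDGUOK replicate 2 the count was 10, beside 12.0% of all genes in that fit. All 9 genes called with every library were among them.

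CXCL8, the neutrophil chemokine interleukin-8, rose most. It measured 16.1, 16.1 and 17.3 CPM in siControl and 203, 202 and 260 CPM in siDGUOK libraries. The siControl values were nearly identical and every siDGUOK library was far above them, for a log2 fold change of 3.75 (SE 0.12, edgeR adjusted p = 6.98e-13). PLAU, which encodes urokinase, rose from 2.10 ± 2.01 to 19.9 ± 4.61 CPM (SD, n = 3), with siControl replicate 1 the highest of its group at 4.38 CPM. Leaving that library out raised its log2 fold change from 3.20 to 4.46, and the shrunken estimate of DESeq2 for PLAU was 1.72. IER3, an early-response survival gene, rose from 162 ± 10.7 to 358 ± 23.2 CPM (log2 fold change 1.15). CSF1, the macrophage growth factor, had a log2 fold change of 0.89 and GADD45B, a stress-response gene, one of 0.73. BCL2L1, which encodes the survival protein Bcl-xL, had one of 0.54 and was no longer a call without siDGUOK replicate 3, at 0.45.

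Besides ICAM1, 3 target genes were called lower, including both complement genes of the list. C3, the central complement component and the most abundant gene of the list per length, fell from 7100 ± 343 to 3110 ± 483 CPM (SD, n = 3), a log2 fold change of −1.19. CFB, complement factor B, fell from 40.7 ± 2.08 to 19.6 ± 1.28 CPM (log2 fold change −1.05). C3 and CFB fell together with the hepatocyte markers given above, and the part of that shift in the result was not tested. CD83, an activation marker of dendritic cells, had 90, 87 and 28 counts in siControl and 8, 8 and 0 counts in siDGUOK libraries. Its log2 fold change of −3.72 (SE 0.98, edgeR adjusted p = 0.0110) rests on few counts and was −0.96 as the shrunken estimate of DESeq2, and without siControl replicate 1 or 2 the adjusted p was 0.0710 or 0.0531 and the call was lost. SOD2 (−0.49), CCL20 (0.47) and SQSTM1 (0.49) passed the adjusted p alone.

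**Figure D5:**
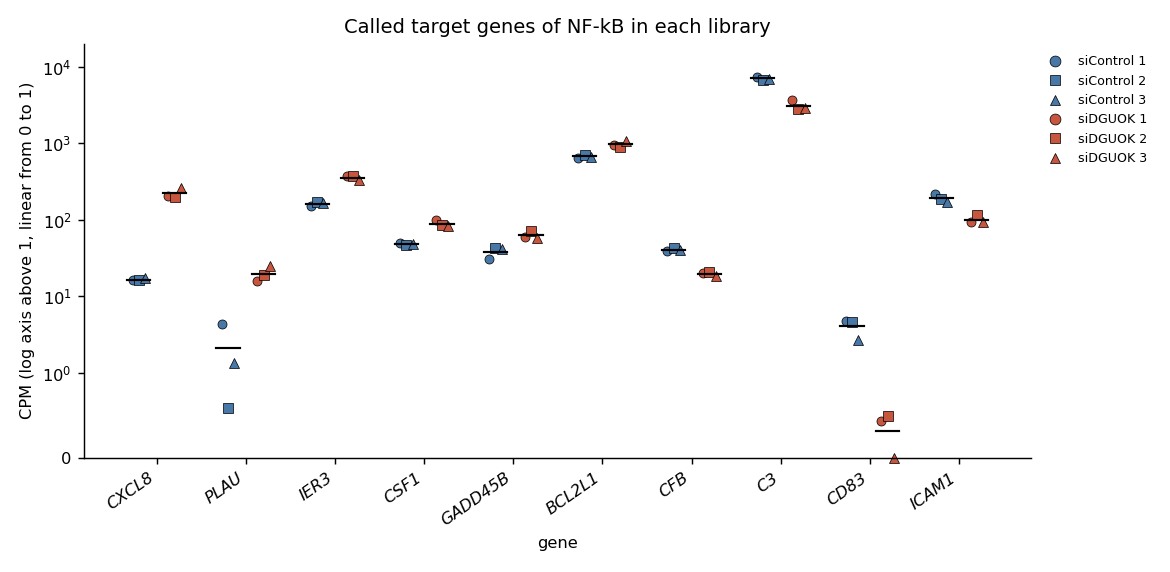
CPM of the 9 called genes of the target list and of ICAM1 in every library (axis logarithmic above 1 and linear from 0 to 1), siControl in blue, siDGUOK in red, with group means as lines. CXCL8, PLAU, IER3, CSF1, GADD45B and BCL2L1 lie higher in all siDGUOK libraries, and CFB, C3, CD83 and ICAM1 lie lower.

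Many inducible targets had no counts or very few. Of the 12 tabulated targets that were not tested, 11 had no count in any siControl library, among them IL6, CXCL1, CCL2, VCAM1, SELE and PTGS2, and CXCL2 was the exception with up to 10 counts. IL6, CXCL3 and PTGS2 were also at 0 in every siDGUOK library. A count of 0 allows up to 3 counts, which is 0.157, 0.159 and 0.285 CPM in the siControl libraries and 0.161, 0.188 and 0.141 CPM in the siDGUOK libraries, counting error alone. CXCL1 had 8, 6 and 25 counts in the siDGUOK libraries and CCL2 had 6, 28 and 0. VCAM1 had 11 counts and CXCL10 had 2 in siDGUOK replicate 1 only. CSF2 had 12, SAA1 had 9 and SELE had 1 in siDGUOK replicate 2 only, and MMP9 had 19 in siDGUOK replicate 3 only.

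Among receptors and ligands that feed the pathway, 16 of 26 were tested and 2 were called, or 12.5% beside 14.1% of all genes, 1 in each direction. IL18, an interleukin-1 family cytokine, rose from 4.25 ± 1.07 to 11.9 ± 2.69 CPM (SD, n = 3; log2 fold change 1.49). IL1RAP, the shared accessory chain of the interleukin-1 receptor, fell from 63.9 ± 8.70 to 30.2 ± 3.05 CPM (SD, n = 3; log2 fold change −1.09). The most abundant per length were TNFRSF12A, the TWEAK receptor, at 210 ± 22.3 CPM in siControl and 296 ± 5.90 CPM in siDGUOK cells, which passed the adjusted p alone (log2 fold change 0.49), and TNFRSF10B, a TRAIL receptor (−0.16, edgeR adjusted p = 0.163). The median of the 16 was −0.15. Without siDGUOK replicate 2 the count was 4, beside 12.0% of all genes in that fit. TNFRSF12A (higher) and TNFSF10 (lower) were the additions to IL18 and IL1RAP.

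The ligands that classically start the signal were at or near 0. TNF, IL1A and IL1B had no count in 5 of 6 libraries and 6, 2 and 5 counts in siDGUOK replicate 1. That library also had the most genes with a count, 21057 against 16205 to 17583 in the others. TNFSF11 was at 0 throughout. LTA, CD40LG and TNFRSF1B, genes known from lymphocytes, had 58, 17 and 161 counts in siDGUOK replicate 2 and at most 5, 0 and 29 in any other library, so that they were high in the library with the high marker sums.

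The adaptors and kinases that carry the signal to the IkB proteins were all expressed, 32 of 32 being tested. Of these 3 were called, or 9.38% beside 14.1% of all genes, and their median log2 fold change was 0.00. TAB3, an adaptor of the kinase TAK1, fell from 55.9 ± 5.44 to 29.1 ± 3.47 CPM (SD, n = 3; log2 fold change −0.95). MALT1, the paracaspase of the CBM complex, rose from 94.0 ± 10.4 to 143 ± 14.0 CPM (SD, n = 3; log2 fold change 0.60), and without siDGUOK replicate 1 it was at 0.50 and no longer a call. IKBKE, an IKK-related kinase, had a log2 fold change of 0.85 (SE 0.28, edgeR adjusted p = 0.0382) and lost its call in 7 of 13 alternative fits, DESeq2 among them. In the fits that left out siControl replicate 1, siControl replicate 2, siDGUOK replicate 1, siDGUOK replicate 2 or siDGUOK replicate 3 its adjusted p from edgeR was 0.155, 0.0567, 0.0658, 0.0822 and 0.127. The most abundant per length, RBCK1 of the linear ubiquitin complex (0.41) and the kinase gene IRAK1 (0.48), passed the adjusted p alone. CHUK, IKBKB and IKBKG, which encode the IKK complex itself, were named after their values were seen and were not called, at 0.43, 0.07 and 0.56.

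Of the other inhibitors 18 of 20 were tested and 2 were called, both higher, or 11.1% beside 14.1% of all genes (7.42% higher). ITCH, a ubiquitin ligase that works with A20, rose from 130 ± 10.3 to 211 ± 15.1 CPM (SD, n = 3; log2 fold change 0.70). TAX1BP1, an A20 adaptor, rose from 205 ± 16.2 to 304 ± 19.7 CPM (SD, n = 3; log2 fold change 0.57) and was at 0.50 without siDGUOK replicate 1, where it was no longer a call. TNIP1, also an A20 partner and one of the most abundant of the list per length, was 186 ± 20.5 and 178 ± 7.82 CPM (SD, n = 3; log2 fold change −0.06, edgeR adjusted p = 0.712). The median of the 18 was −0.01. Without siDGUOK replicate 2 there were 3 calls, NLRC5 being the addition, lower, beside 12.0% of all genes in that fit.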

How the data were processed

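Counts per gene were analysed for 6 HepG2 libraries, 3 siControl and 3 siDGUOK, labelled polyA RNA although the protocol text leaves the selection and the kit open. The authors aligned paired-end reads to GRCh38 with STAR 2.6.1 and counted them per gene with featureCounts 1.6.5, and the deposited values are whole counts without normalization. Strand was not used under the stated defaults, so genes that overlap others are uncertain. Of 34036 genes, 24670 had a count.

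Genes were filtered with filterByExpr (minimum count 10), scaled by TMM and compared in edgeR 4.0.16 (R 4.3.3) by a robust quasi-likelihood fit on all genes, with Benjamini-Hochberg adjustment over the 14476 tested. The standard error is the log2 fold change divided by the root of F. Promoters came from RefSeq, and lengths and coordinates from Gencode 44, whereas the counts were made on Gencode 27, so levels per kilobase divide counts by the lengths of a later release, and the ID versions shown are those of the count table. Ratios were compared by exact permutation over libraries. The fit was tested on simulated data. Replicates of a group differed beyond sampling noise in every pair (chi-square over degrees of freedom 10.9 to 27.2). The series calls the replicates independent biological ones, and p-values measure the spread between these cultures.

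Members and gene lists were chosen with earlier results of these data known. Named genes were all members, DGUOK, in each list up to 8 called genes by size of change, the 2 most abundant per length and defining genes near 0, and the 3 genes most correlated with each called member. The few genes named outside this rule were picked once their values were known. Alternatives were RLE and upper-quartile scaling, DESeq2 1.42.0 (fold changes shrunken or not), no count filter, a mean above 10 CPM, replicate number as a block, other fold thresholds, each library left out, and for ratios plain CPM and, added after seeing the data, the canonical transcript's length.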

Additional observations from a re-analysis of the deposited data

How the results depend on the processing

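ICAM1, at −0.94, kept its call in all 13 alternative fits, and DGUOK did too. The count of members called was 1. It was 3 at the adjusted p alone, 0 at a log2 fold change beyond 1.5, and 1 to 2 with a library left out (NFKBIA was added without siDGUOK replicate 1 and NFKB1 without siDGUOK replicate 2). At 1.5 the receptors and ligands, the adaptors and kinases and the other inhibitors had 0 calls each and the other targets 3. The share of all genes at 1.5 is not given here. Of all genes, 8.8% were called without a count filter and 11.1 to 12.7% with a library left out, and 19.7% passed the adjusted p alone. Without a count filter the receptors and ligands had 4 calls, and with a library left out 2 to 4. The adaptors and kinases had 5 at the adjusted p alone and 1 to 4 with a library left out, and the other inhibitors 1 to 3. On plain CPM the share of NFKB2 plus RELB differed by −0.95 points and the inhibitor ratio by −0.944, values on another scale.

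Replicate numbers did not pair the libraries (correlations of same-numbered deviations 0.024, 0.0166 and −0.00224). With replicate number as a block 1 member was called, ICAM1 at −0.94, and REL was −0.95. REL and BIRC3, under 10 CPM on average, have no value with the filter on mean CPM.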
